A study of Mus musculus with 48 samples.

Results

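Carboxylesterases are serine hydrolases that split ester bonds in drugs, prodrugs and lipids, and 9 of their mouse genes are described here in jejunum, the middle stretch of the small intestine. The genes are Ces1d, Ces1e, Ces1f, Ces1g, Ces2a, Ces2b, Ces2c, Ces2e and Ces3a, chosen by name from the gene rows of a count table through the GENCODE annotation of the mm10 genome. The table held 20 carboxylesterase genes among 55401 gene IDs. All 9 chosen genes had enough counts to be tested, among 15646 genes tested in all, although Ces3a was at 0 in 1 library.

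RNA sequencing was done on jejunal tissue of mice held in constant darkness, so times are circadian times (CT, hours of the internal day). Knockout mice carried the genotype written Bmal1iec-/- in the labels, in which Bmal1 (gene symbol Arntl), a core activator of the circadian clock, was deleted, and control mice carried floxed Bmal1 alleles, written bmal1fl/fl. Knockout jejunum was sampled at CT1, CT5, CT13, CT17 and CT21 with 4 libraries each and at CT9 with 3 libraries, and control jejunum at the same 6 times with 4 libraries each. 1 more knockout CT9 library that the labels list was not analysed here. The labels name no driver of the deletion, no age and no sex, and do not say whether each library came from its own mouse. P-values therefore speak only of the scatter among these libraries, which may be technical.

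Most carboxylesterases sit inside the endoplasmic reticulum, where they meet lipids and foreign esters that enter the cell. Enzymes of the Ces1 family are best known from liver, where Ces1d mobilises stored triacylglycerol, and enzymes of the Ces2 family are abundant in the small intestine, where they act on ester prodrugs and on acylglycerols. The mouse has many more of these genes than the human, placed side by side as tandem copies.

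The genes lie in 2 groups on chromosome 8. Ces1d (chr8:93166068-93197838), Ces1e (chr8:93201218-93229619), Ces1f (chr8:93256236-93279747) and Ces1g (chr8:93302369-93337308) stand on the minus strand within 171 kb of mm10. Ces2a (chr8:104734003-104741634), Ces2b (chr8:104831572-104840093), Ces2c (chr8:104847068-104854483), Ces2e (chr8:104926260-104934672) and Ces3a (chr8:105048601-105058413) stand on the plus strand within 324 kb. The 4 Ces1 coding sequences were 74.4% to 81.5% identical, and the 4 Ces2 coding sequences 82.6% to 91.9%, with Ces2b and Ces2c the closest pair. Ces1 against Ces2 coding sequences were 53.1% to 57.2% identical.

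This likeness bears on how reads can be assigned, since the labels do not say how reads that match several genes were treated. Of all 50-base stretches in their annotated transcripts, 36.1% of those of Ces2c, 25.6% of those of Ces3a, 17.3% of those of Ces2a and 9.42% of those of Ces2b occur also in another gene. For Ces2c most of these were shared with the pseudogene Ces2d-ps, for Ces3a all were shared with Ces3b, and for Ces2a most were shared with Gm7208. Counts of these 4 genes are therefore uncertain. The shares were 3.3% for Ces2e, 2.97% for Ces1e, 1.67% for Ces1g, 1.08% for Ces1d and 0.903% for Ces1f.

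Promoter windows of 300 bases (250 before and 50 after the annotated start) were found for 5 of the 9 genes (Ces1e, Ces1g, Ces2a, Ces2c and Ces2e), from RefSeq on GRCm38.p6. Ces1d, Ces1f, Ces2b and Ces3a were not searched for motifs. They are shown because Ces1g, whose control levels had a daily rhythm, and Ces1e, for which none was called in control jejunum, both carry the letters TTATGTAA (reverse TTACATAA), a D-box, the element bound by the clock-output factors Dbp, Tef, Hlf and Nfil3. The windows of Ces2c and Ces2e, the other genes shown, hold none of the motifs searched. Capitals mark the D-box.

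Ces1g (chr8:93337160-93337459, minus strand): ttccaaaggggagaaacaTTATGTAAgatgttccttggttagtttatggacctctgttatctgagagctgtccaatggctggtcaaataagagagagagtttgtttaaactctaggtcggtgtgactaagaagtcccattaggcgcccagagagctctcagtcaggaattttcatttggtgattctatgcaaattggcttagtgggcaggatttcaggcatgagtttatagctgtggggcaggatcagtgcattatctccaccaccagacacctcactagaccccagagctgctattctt

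Ces1e (chr8:93229570-93229869, minus strand): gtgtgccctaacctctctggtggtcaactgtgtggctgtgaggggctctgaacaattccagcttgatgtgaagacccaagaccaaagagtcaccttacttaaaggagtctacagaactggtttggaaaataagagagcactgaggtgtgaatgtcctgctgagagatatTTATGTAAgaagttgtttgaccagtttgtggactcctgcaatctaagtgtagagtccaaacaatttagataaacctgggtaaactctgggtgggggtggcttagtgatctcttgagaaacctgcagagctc

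Ces2c (chr8:104846818-104847117, plus strand): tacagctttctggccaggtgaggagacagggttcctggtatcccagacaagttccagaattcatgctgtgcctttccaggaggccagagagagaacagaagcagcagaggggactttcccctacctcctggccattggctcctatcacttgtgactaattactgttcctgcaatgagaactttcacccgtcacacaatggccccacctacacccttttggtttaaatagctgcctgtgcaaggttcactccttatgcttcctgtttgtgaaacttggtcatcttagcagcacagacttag

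Ces2e (chr8:104926010-104926309, plus strand): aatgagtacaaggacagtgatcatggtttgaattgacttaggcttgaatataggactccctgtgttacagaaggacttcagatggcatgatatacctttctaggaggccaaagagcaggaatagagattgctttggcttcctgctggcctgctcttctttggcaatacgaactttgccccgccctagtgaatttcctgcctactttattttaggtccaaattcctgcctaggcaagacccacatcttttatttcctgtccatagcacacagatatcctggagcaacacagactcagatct

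The D-box starts 232 bases before the RefSeq start of Ces1g and 81 bases before that of Ces1e. The RefSeq start of Ces1g lies inside the GENCODE gene bounds given above, so the distance from its GENCODE start is shorter. Of 32817 mouse promoter windows of this length, 0.935% hold the D-box on either strand. The E-box CACGTG (same on both strands), found in 7.15% of windows, the E-box variant CACGTT or AACGTG (4.69%), the D-box variant TTATGCAA or TTGCATAA (0.744%) and the RORE letters TAGGTCA or TGACCTA (2.61%) were in none of the 5 windows. The half-site AGGTCA or TGACCT, which is part of the RORE, was in the Ces2a window, whose letters are not shown, and in 16.3% of all windows. A match describes letters and is not a site shown to be bound.

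Libraries held 4.79 to 6.91 M counts (M for mega) in knockout jejunum and 4.34 to 6.06 M in control jejunum, and levels are given as CPM, counts scaled to a common library size (TMM, over tested genes). Arntl counted over the whole gene had group means of 27.3 to 31.4 CPM over the 6 times in knockout jejunum, against 10.4 to 78.4 CPM in control jejunum, and its 24-h amplitude was 0.04 log2 units in knockout and 1.61 in control jejunum (adjusted p of the rhythm difference 2.41e-16). The deleted exons are not named in the labels, and the tissue also holds cells outside the epithelium, so the total level is no measure of the deletion. Enterocyte markers (Vil1, Alpi, Lct and 5 others) summed to 23849 to 43587 CPM in knockout and 22901 to 41405 CPM in control libraries. Of 3 ileum markers, Fabp6 reached at most 6 counts in any library, Slc10a2 24 and Osr2 446. Of 5 hepatocyte markers, Alb, Serpina1c and Fgb reached at most 13, 5 and 4 counts, and Ttr (0.48, adjusted p = 0.0273) and Apoa2 (1.65, adjusted p = 3.78e-08, edgeR) rose. The 2 that could be tested, Ttr and Apoa2, summed to 2.54 to 16.2 CPM in knockout and 0.571 to 4.72 CPM in control libraries. The part of hepatocyte markers in the carboxylesterase values was not tested. In 5 libraries relative levels over all genes were spread wider than in the other 42 (interquartile range 0.6 to 1.12 log2 units, against at most 0.476): knockout CT1 replicates 1, 2 and 3, knockout CT21 replicate 4 and control CT21 replicate 1. Calls that changed without them are given with and without them.

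Over the 6 times together, 5 of the 9 genes rose in knockout jejunum (Ces1f, Ces2b, Ces2c, Ces2e and Ces3a), 2 fell (Ces1d and Ces1g) and 2 did not pass the test (Ces1e and Ces2a). The test was edgeR's quasi-likelihood F test with Benjamini-Hochberg adjustment over all tested genes and a threshold of 0.05. Of all tested genes 12.4% rose and 11.3% fell, so the shares of the 9 genes, 55.6% and 22.2%, were above these backgrounds. The 9 genes were chosen with earlier results of these data known, so this comparison is a description and not a test. The median log2 fold change of the 9 genes was 0.464, against -0.00574 over all tested genes. Without the 5 libraries that stood apart, or without CT1, the same counts of 5 and 2 were found.

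**Figure D1:**
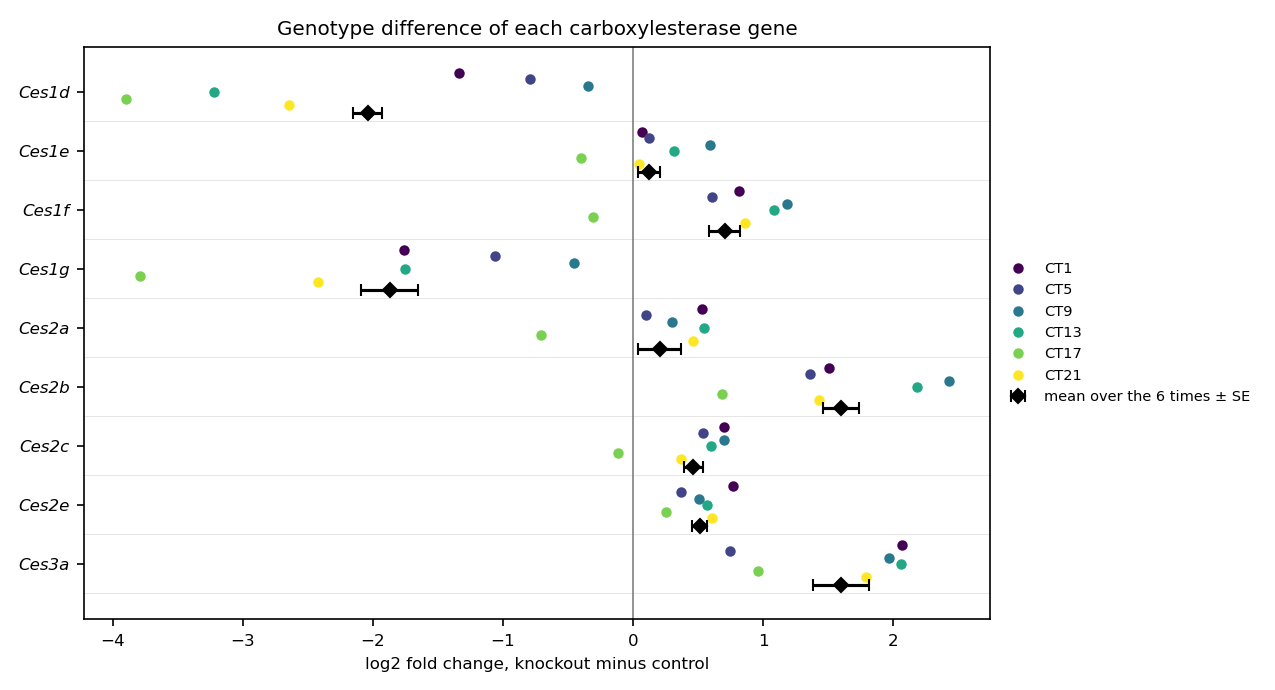
Genotype difference of each gene as log2 fold change, knockout minus control (x axis), for each circadian time (coloured points) and for the mean over the 6 times (diamonds, bars are the SE). Ces1d and Ces1g lie left of 0 at all 6 times, and Ces2b, Ces2e and Ces3a lie right of 0 at all 6 times.

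Ces1d, a triacylglycerol hydrolase, was low in knockout jejunum, with no called rhythm, and had a large daily rise in control jejunum. At CT9 it was at 25.1, 14.8 and 10.2 CPM in knockout libraries, against 18.9, 22.4, 22.4 and 21.4 CPM in control libraries. At CT13 it was at 7.9, 10.5, 17.3 and 17.2 CPM in knockout libraries, against 132, 134, 113 and 111 CPM in control libraries. The groups thus overlapped at CT9 and were far apart 4 h later. At CT17 the knockout libraries held 12.1, 12.4, 10.6 and 10.5 CPM, against 132, 127, 234 and 189.8 CPM in the control libraries. At CT21 the knockout libraries held 9.76, 14.8, 10.3 and 15.2 CPM, against 100.2, 58.6, 50.2 and 102 CPM in the control libraries. No knockout library at CT13, CT17 or CT21 reached the lowest control library of its time. At CT1 the knockout libraries held 17.4, 16.3, 14.9 and 12.2 CPM, against 38.4, 50.6, 36.5 and 28.2 CPM in the control libraries. At CT5 the knockout libraries held 12.8, 14, 13.0 and 14.9 CPM, against 11.5, 21.8, 30.8 and 30.5 CPM in the control libraries, where 1 control library lay below all knockout libraries.

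The 6 knockout group means of Ces1d spanned 11.4 to 16.7 CPM, a ratio of 1.46, whereas the control means spanned 21.3 CPM at CT9 to 171 CPM at CT17, a ratio of 8.02. The log2 fold change was -2.04 ± 0.11 (SE) over all times (adjusted p = 3.23e-18, edgeR), lower at 6 of 6 times. By time it was -3.90 ± 0.27 at CT17 (adjusted p = 3.05e-13), a level 14.9-fold lower, -3.22 ± 0.27 at CT13 (adjusted p = 1.05e-11) and -2.64 ± 0.27 at CT21 (adjusted p = 1.95e-08). It was -1.34 ± 0.27 at CT1 (adjusted p = 0.000939, or -1.70 with an adjusted p of 0.159 without the libraries that stood apart, which leaves 1 knockout library at that time). At CT5 the value was -0.79 (adjusted p = 0.241) and at CT9 -0.35 (adjusted p = 0.765), neither past the threshold. The difference between the times was itself past the threshold (interaction adjusted p = 7.66e-09, edgeR), as it was for 1.28% of tested genes. For the other 8 genes it was not (interaction adjusted p from 0.122 for Ces1g to 0.725 for Ces3a). A genotype difference that changed with time is therefore not shown for them.

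A 24-h cosine fitted to each genotype gave Ces1d an amplitude of 0.20 ± 0.14 log2 units in knockout jejunum (adjusted p = 0.553) and 1.53 ± 0.12 in control jejunum (adjusted p = 5.69e-13), with a control peak at CT17.0 ± 0.3 h. The amplitude is the height of the fitted curve above its mean. The rhythms differed between the genotypes (adjusted p = 1.07e-07), and Ces1d was the 1 gene of 9 for which that test was passed, against 1.57% of tested genes.

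Ces1g, known in mouse liver for its part in lipid handling, fell with Ces1d but from a much lower level. At CT17 it was at 1.89, 1.88, 2.94 and 1.88 CPM in knockout libraries, against 10.3, 12.8, 56.3 and 40.7 CPM in control libraries. At CT21 it was at 1.29, 2.09, 1.83 and 2.81 CPM in knockout libraries, against 9.9, 7.42, 4.7 and 20.5 CPM in control libraries. At both times the groups did not overlap, and the control libraries spread several-fold among themselves. At CT13 it was at 1.02, 3.57, 1.44 and 4.07 CPM in knockout libraries, against 11.6, 7.1, 7.84 and 6.74 CPM in control libraries. At CT9 it was at 3.64, 1.93 and 2.03 CPM in knockout libraries, against 3.21, 2.38, 3.67 and 4.55 CPM in control libraries, where the ranges overlapped as they did for Ces1d. Single knockout libraries held as few as 5 reads of Ces1g, so its values there are coarse.

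The log2 fold change of Ces1g was -1.87 ± 0.22 over all times (adjusted p = 1.45e-08), lower at 6 of 6 times, with -3.79 ± 0.48 at CT17 (adjusted p = 1.66e-06) and -2.42 ± 0.54 at CT21 (adjusted p = 0.00999). The CT21 call ended without control CT21 replicate 4 (-1.85, adjusted p = 0.111). At CT1 it was -1.76 (adjusted p = 0.0134, and 0.231 without the libraries that stood apart; the call also ended without control CT1 replicate 2). The CT13 value of -1.75 sat at the threshold (adjusted p = 0.0499) and lost its call in 37 of the 47 fits that left out a single library. It also lost its call without the libraries that stood apart (-1.76, adjusted p = 0.0591). The CT5 and CT9 values of -1.06 and -0.45 did not pass.

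Ces1g was rhythmic in control jejunum (amplitude 1.14 ± 0.21, peak at CT18.8 ± 0.67 h, adjusted p = 0.000135) and not called rhythmic in knockout jejunum (amplitude 0.33 ± 0.30, adjusted p = 0.674). The difference of its rhythms had an adjusted p of 0.066, which does not show a difference and does not show that there is none. It passed in 5 of the 47 fits that left out a single library (control CT17 replicate 1, control CT21 replicates 1, 2 and 3, and control CT5 replicate 4), with an adjusted p of 0.0261 to 0.136 over all 47. Ces1d and Ces1g had a Pearson correlation of 0.913 over the 12 group means of log2 CPM, the highest of Ces1d with any of the other 8 carboxylesterases described here. These points share libraries, and the value is a description.

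**Figure D2:**
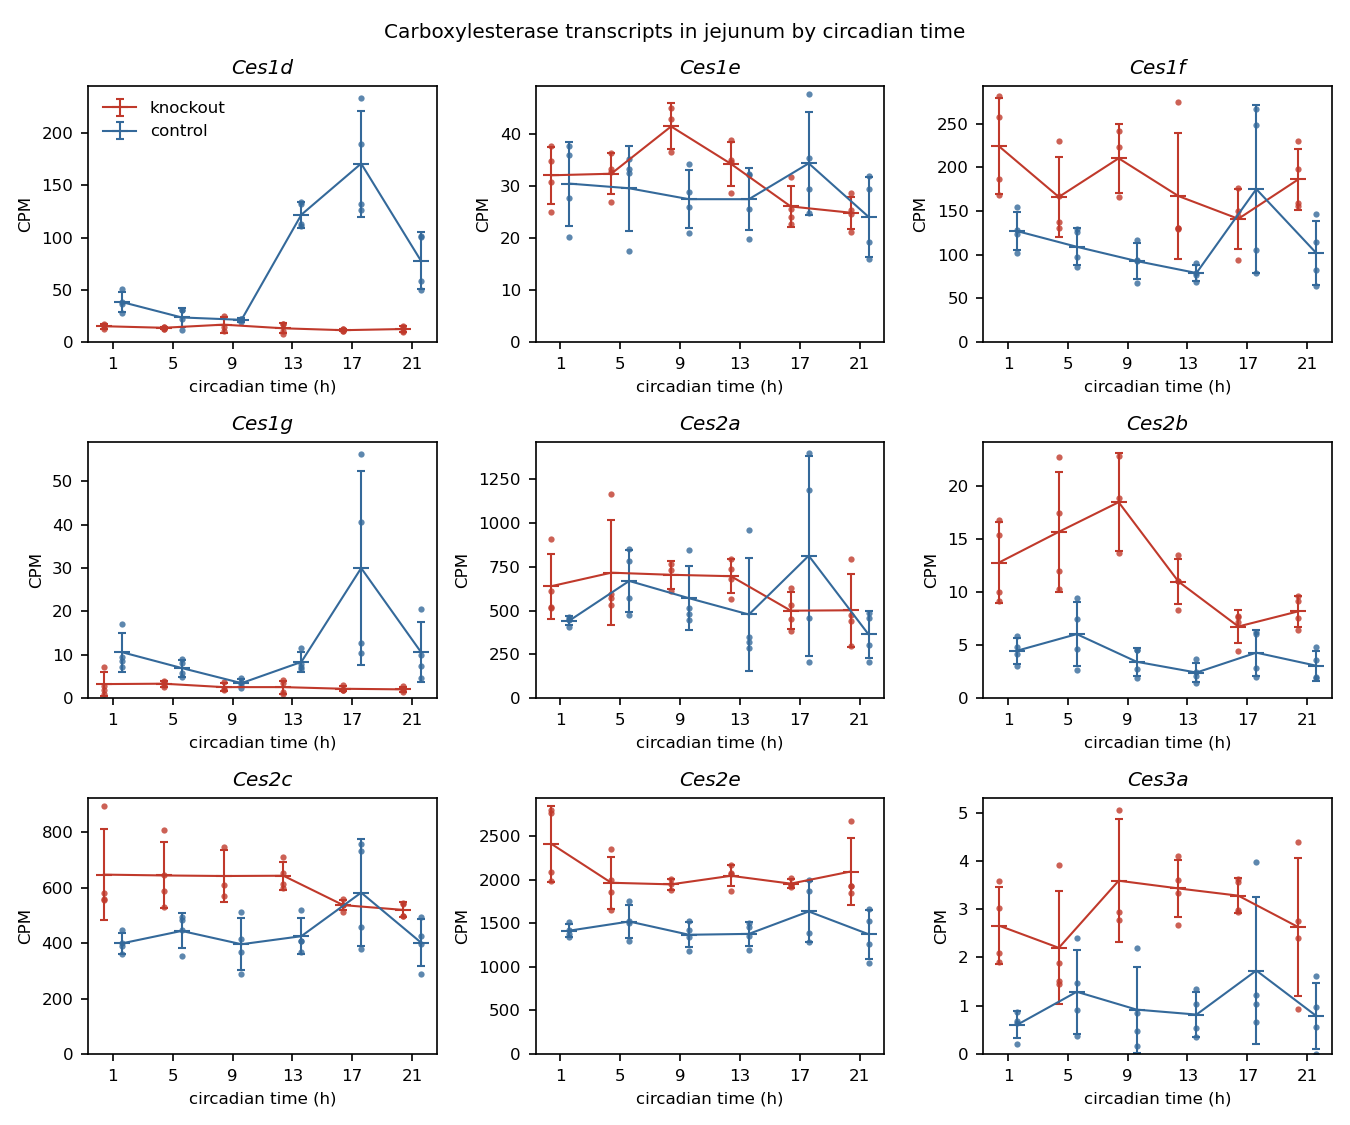
Level of each of the 9 genes in CPM (y axis, from 0) against circadian time in h (x axis). Points are single libraries, and lines join group means with SD, knockout to the left of control at each time. The knockout means of Ces1d stay between 11.4 and 16.7 CPM, and the control mean is 171 CPM at CT17.

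Ces1e, also known as egasyn, which anchors beta-glucuronidase in the endoplasmic reticulum, showed no genotype difference past the threshold at any time. It averaged 31.9 CPM over the 6 knockout group means and 29.0 CPM over the 6 control group means (log2 fold change 0.12 ± 0.09, adjusted p = 0.323). At CT9, its highest time in knockout jejunum, it was at 45.0, 36.5 and 42.9 CPM in knockout libraries, against 26.0, 20.9, 28.9 and 34.3 CPM in control libraries. These did not overlap, but the test did not pass (0.59 ± 0.22, adjusted p = 0.159). A knockout rhythm of 0.31 ± 0.09 log2 units peaking at CT8.22 was called (adjusted p = 0.0406), against 0.02 ± 0.09 in control jejunum (adjusted p = 0.983). That call ended in 9 of the 47 fits without a single library, all of them knockout libraries, and the difference between the rhythms was not past the threshold (adjusted p = 0.488).

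Ces1f, a lipid hydrolase of the same family, was higher in knockout jejunum. It averaged 182 CPM over the knockout group means and 114 CPM over the control group means (0.71 ± 0.12, 1.63-fold, adjusted p = 2e-05). The CT9 levels were 223, 241 and 166 CPM in knockout libraries, against 117, 67.4, 93.9 and 92.3 CPM in control libraries (1.18 ± 0.31, adjusted p = 0.0192). The ranges did not overlap at CT1, CT5, CT9, CT13 or CT21. The test did not pass at CT5 (0.60 ± 0.29, adjusted p = 0.62) or CT21 (0.86 ± 0.29, adjusted p = 0.166). How many of all tested genes had separate ranges was not counted, so separate ranges are a description. The CT13 levels were 131, 131, 129 and 275 CPM in knockout libraries, against 79.5, 68.5, 77.1 and 91.0 CPM in control libraries (1.08 ± 0.29, adjusted p = 0.0288), and this call ended without knockout CT13 replicate 4 or any of control CT13 replicates 1, 2 and 3. The CT9 call ended without control CT9 replicate 2, knockout CT9 replicate 2 or knockout CT9 replicate 3. The CT1 call (0.82, adjusted p = 0.0408) ended without any of control CT1 replicates 1, 3 and 4 or knockout CT1 replicates 1 and 2, and without the libraries that stood apart (0.37, adjusted p = 0.802). No rhythm of Ces1f was called by the cosine fit, although its control levels differed among the 6 times (adjusted p = 0.0426, a test passed by 15.7% of tested genes), highest at CT17 and lowest at CT13.

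Within the 4 Ces1 genes the mixture therefore differed between genotypes. Summed as CPM per kb of exon, Ces1d made up a median of 7.18% of Ces1 transcripts in knockout libraries (5.71% to 11.6%), against 30.7% in control libraries (11.9% to 63.3%). At CT13 the share was 5.86% to 11.6% in knockout libraries, against 50.8% to 63.3% in control libraries. At CT9 it was 5.71% to 10.5% in knockout libraries, against 14% to 23.4% in control libraries. Ces1f made up a median of 72.0% in knockout libraries and 45.3% in control libraries. These shares describe the same counts as the tests above and were not tested again.

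The Ces2 family carried most of the transcripts. Per kb of exon, Ces2e was the highest gene with a mean of 652 CPM per kb, 53.7% of the summed level of the 9 genes, followed by Ces2a at 251, Ces2c at 228, Ces1f at 45.1, Ces1d at 18.9, Ces1e at 13.9, Ces1g at 2.99, Ces2b at 2.36 and Ces3a at 0.759 CPM per kb. Ces2e was above Ces2a in all 47 libraries. Ces2a and Ces2c were not ordered beyond their spread: Ces2a was the higher in 8 of 23 knockout and 14 of 24 control libraries. The places of Ces1d and Ces1e turned with genotype, Ces1d being the higher in 0 of 23 knockout and 15 of 24 control libraries. Ces1g was likewise above Ces2b in 1 of 23 knockout and 24 of 24 control libraries. With the longest annotated transcript as length, Ces1f was at 76.9, Ces2c at 266 and Ces2a at 302 CPM per kb, which leaves their order as it was.

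**Figure D3:**
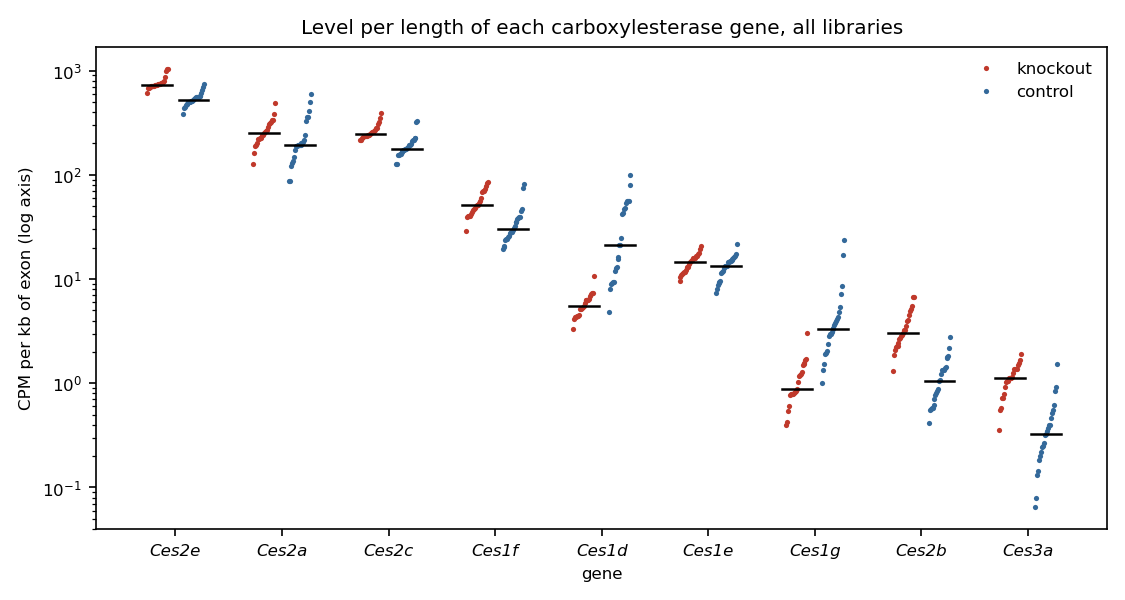
Level per length of each gene in CPM per kb of exon (y axis, log scale), genes ordered from the highest mean level to the lowest (x axis). Points are single libraries, sorted within each genotype, knockout left of control, and black bars are medians; the 1 value at 0 (Ces3a in a control library) is not drawn. Ces2e is the highest gene in both genotypes, and Ces1d and Ces1g are the genes whose control points stand above most knockout points.

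Ces2e, a hydrolase of ester drugs in mouse intestine, rose modestly. It averaged 2068 CPM over the knockout group means and 1448 CPM over the control group means (0.51 ± 0.06, 1.43-fold, adjusted p = 4.64e-09), higher at 6 of 6 times. The CT13 levels were 2074, 2063, 1875 and 2164 CPM in knockout libraries, against 1353, 1199, 1499.7 and 1461 CPM in control libraries (0.57 ± 0.14, adjusted p = 0.0127; the call ended without control CT13 replicate 2). The CT17 levels were 1911, 1943, 2023 and 1939.6 CPM in knockout libraries, against 1288, 1389.8, 1990.5 and 1873 CPM in control libraries (0.26 ± 0.14, adjusted p = 0.499). The ranges were separate at CT1, CT9, CT13 and CT21 and overlapped at CT5 and CT17. The CT21 call (0.61 ± 0.14, adjusted p = 0.0144) ended without knockout CT21 replicate 4 or control CT21 replicate 3, and the CT9 call (0.51 ± 0.15, adjusted p = 0.0459) ended in 6 of the fits without a single CT9 library. The CT1 value was 0.77 ± 0.14 (adjusted p = 0.000502), or 0.52 without the libraries that stood apart (adjusted p = 0.2). No 24-h rhythm was called for Ces2e: the amplitudes were 0.10 ± 0.06 in knockout jejunum (adjusted p = 0.41) and 0.03 ± 0.06 in control jejunum (adjusted p = 0.903).

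Ces2c, an acylglycerol hydrolase of mouse small intestine, averaged 605 CPM over the knockout group means and 441 CPM over the control group means (0.46 ± 0.07, 1.38-fold, adjusted p = 4.56e-06). The CT9 levels were 570.4, 746 and 609.6 CPM in knockout libraries, against 414, 367, 289 and 514 CPM in control libraries (0.70 ± 0.19, adjusted p = 0.0244; the call ended without any of control CT9 replicates 1, 2 and 3 or knockout CT9 replicates 3 and 4). The CT17 levels were 513, 558, 537 and 539 CPM in knockout libraries, against 378, 458, 758 and 732 CPM in control libraries (-0.12 ± 0.18, adjusted p = 0.898). The ranges were separate at every time but CT17. The test still did not pass at CT5 (0.54 ± 0.18, adjusted p = 0.211) or CT21 (0.37 ± 0.18, adjusted p = 0.455). The CT13 value of 0.60 sat at the threshold (adjusted p = 0.0499) and lost its call in 28 of the 47 fits without a single library. The CT1 value of 0.70 (adjusted p = 0.00605) lost its call without knockout CT1 replicate 1, and was 0.45 without the libraries that stood apart (adjusted p = 0.538).

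Ces2b, the closest relative of Ces2c by coding sequence, was much scarcer and rose the most of the Ces2 genes. The CT9 levels were 18.9, 22.9 and 13.7 CPM in knockout libraries, against 4.56, 2.72, 1.92 and 4.55 CPM in control libraries (2.43 ± 0.34, 5.4-fold, adjusted p = 1.85e-06). The CT13 levels were 13.5, 11.1, 8.3 and 11.1 CPM in knockout libraries, against 2.43, 1.42, 3.66 and 2.12 CPM in control libraries (2.18 ± 0.36, adjusted p = 4.92e-05). The CT17 levels were 4.48, 7.68, 7.16 and 7.71 CPM in knockout libraries, against 1.99, 2.85, 6.07 and 6.23 CPM in control libraries (0.69 ± 0.35, adjusted p = 0.451). The ranges were separate at every time but CT17, and over all times the gene was 3.03-fold higher (1.60 ± 0.14, adjusted p = 3.73e-12), higher at 6 of 6 times. At CT1 the value was 1.51 (adjusted p = 0.00193), or 0.97 without the libraries that stood apart (adjusted p = 0.442). The CT5 value of 1.36 (adjusted p = 0.0121) and the CT21 value of 1.43 (adjusted p = 0.0314) each lost the call in 4 fits without a single library of that time.

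Ces2b was rhythmic in knockout jejunum, with an amplitude of 0.68 ± 0.13 log2 units and a peak at CT6.61 ± 0.7 h (adjusted p = 0.00136). Its amplitude in control jejunum was 0.42 ± 0.17 (peak at CT3.13, adjusted p = 0.128). The difference was not past the threshold (adjusted p = 0.472), so a rhythm gained in the knockout is not shown. Background shares were 15% of tested genes with a called rhythm in knockout jejunum and 21.1% in control jejunum, close to the 2 of 9 genes (22.2%) called in each genotype here.

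Ces2a, a hydrolase of acylglycerols in mouse, varied widely among libraries of the same group. It averaged 627 CPM over the knockout group means and 557 CPM over the control group means (0.21 ± 0.16, adjusted p = 0.394). At CT5 it was at 534, 598, 1165 and 571 CPM in knockout libraries, against 477, 850.2, 571 and 781 CPM in control libraries. At CT13 it was at 796, 682, 569 and 740.1 CPM in knockout libraries, against 347, 287, 959.8 and 319 CPM in control libraries. At CT17 it was at 385, 452, 529.9 and 632 CPM in knockout libraries, against 205, 458, 1402 and 1192 CPM in control libraries. In each of these a single library, or a pair of them in control CT17, lay far above the rest of its group, and no time passed the test. Its ranges were separate only at CT1 (517 to 909 CPM in knockout, against 408 to 461 CPM in control libraries; adjusted p = 0.348).

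Ces3a was the scarcest of the 9 genes and was higher in knockout jejunum at 6 of 6 times. At CT13 it was at 4.1, 2.68, 3.61 and 3.33 CPM in knockout libraries, against 0.347, 0.532, 1.04 and 1.35 CPM in control libraries (2.06 ± 0.51, adjusted p = 0.0105). At CT9 it was at 2.94, 5.05 and 2.77 CPM in knockout libraries, against 2.19, 0.17, 0.479 and 0.842 CPM in control libraries (1.97 ± 0.51, adjusted p = 0.015). Ranges were separate at CT1, CT9 and CT13. Group sums were 48 to 81 reads in knockout and 13 to 34 reads in control jejunum, so counting error is large. Over all times the gene was 3.03-fold higher (1.60 ± 0.21, adjusted p = 1.58e-07). The CT1 call (2.07, adjusted p = 0.0118) ended without knockout CT1 replicate 1 and without the libraries that stood apart (1.54, adjusted p = 0.498), the CT13 call ended without control CT13 replicate 1 or 2, and the CT9 call ended without control CT9 replicate 2, control CT9 replicate 3 or knockout CT9 replicate 3. At CT21 the value of 1.79 did not pass (adjusted p = 0.109), but passed without the libraries that stood apart (2.56, adjusted p = 0.0245).

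Counted over the 9 genes and 6 times, 18 of 54 pairs of gene and time were called higher in knockout jejunum and 8 lower. Only Ces1d passed the interaction test, so a difference between the times is not shown for the other 8 genes. At CT1, 5 genes were called higher, against 12.8% of tested genes, and all 5 of these calls, and both CT1 calls of lower genes, ended without the libraries that stood apart, which leaves 1 knockout library at CT1. At CT5 it was 1 gene, Ces2b, against 0.53%. CT9 and CT13 had 5 called higher each, against 1.59% and 2.06% of tested genes. CT17 had 0, against 0.716%, and CT21 had 2, Ces2b and Ces2e, against 0.684%. Ces1d and Ces1g were called lower at CT1, CT13, CT17 and CT21, against 8.24%, 1.41%, 1.51% and 0.767% of tested genes, and no gene of the 9 was called lower at CT5 or CT9 (0.371% and 2.42%). At CT17, where edgeR called 0 of the 9 higher, 1 of them (Ces3a) was higher at an unadjusted p under 0.05 (0.0393), and limma-voom and DESeq2 also called 0 higher. Fitted on the 2 groups of a time alone, 11 pairs were higher and 6 lower. The calls that ended in that fit were those of Ces1g at CT17 (-3.78, adjusted p = 0.0641) and CT21, Ces1f at CT13, Ces2b at CT5 and CT21, Ces2c at CT1 and CT9, Ces2e at CT21 and Ces3a at CT9. Without a filter on low counts, 12 pairs were higher and 7 lower, and without the libraries that stood apart 14 were higher and 5 lower.

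At CT17 the control libraries were themselves uneven. Control CT17 replicates 3 and 4 were the highest of that group in 8 of the 9 genes, all but Ces3a, which was at 3.98 CPM in replicate 3 and 1.04 CPM in replicate 4. The same 2 libraries were the highest of the group in 17.9% of all tested genes. In those replicates the 4 other carboxylesterase genes that could be tested summed to 96.5 and 72.7 CPM, against 42.6 and 48.1 CPM in replicates 1 and 2. Enterocyte markers summed to 41405 and 39284 CPM, against 32759 and 37086 CPM, and goblet cell markers to 6315 and 7178 CPM, against 8911 and 10184 CPM. Markers of the proximal small intestine summed to 6660.4 and 6357 CPM, against 4576 and 4896 CPM. That sum is led by Fabp1 and Lct (control means 2261 and 2287 CPM, against 133 CPM for Gata4). Lct is also among the enterocyte markers, so the 2 sums are not separate. Their part in the spread of the carboxylesterases was not tested, and neither library was among the 5 that stood apart.

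**Figure D4:**
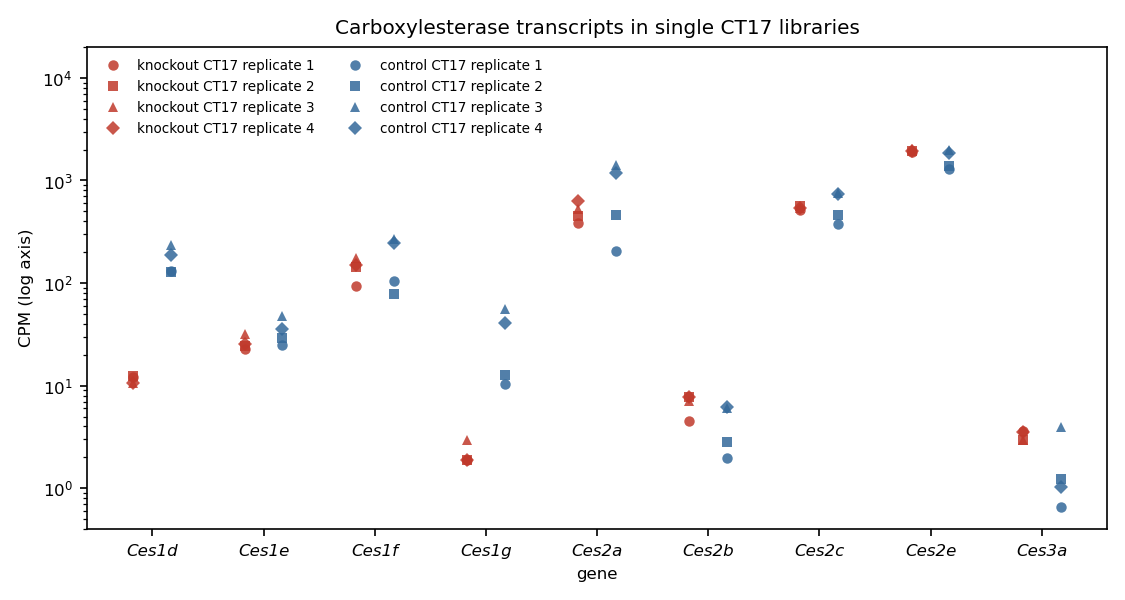
Level of each gene in single CT17 libraries in CPM (y axis, log scale), knockout left of control, with a marker shape for each replicate. Control replicates 3 and 4 (triangles and diamonds) lie above control replicates 1 and 2 in 8 of the 9 genes, and the 4 knockout libraries lie closer together.

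With control CT17 held to replicates 1 and 2, a choice made after seeing the data, 6 genes were higher instead of 5, Ces2a being added (0.42, adjusted p = 0.0276), and 2 stayed lower. The CT17 values of Ces1f, Ces2a and Ces2c turned to 0.61, 0.60 and 0.36, against -0.31, -0.70 and -0.12 with all 4 libraries, and none of these passed in either fit. Control rhythms were then called in 4 genes, with Ces2a (amplitude 0.48, adjusted p = 0.0285) and Ces2b (0.72, adjusted p = 0.00387) added to Ces1d and Ces1g. With CT17 left out altogether 5 genes were higher and 2 lower.

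**Figure D5:**
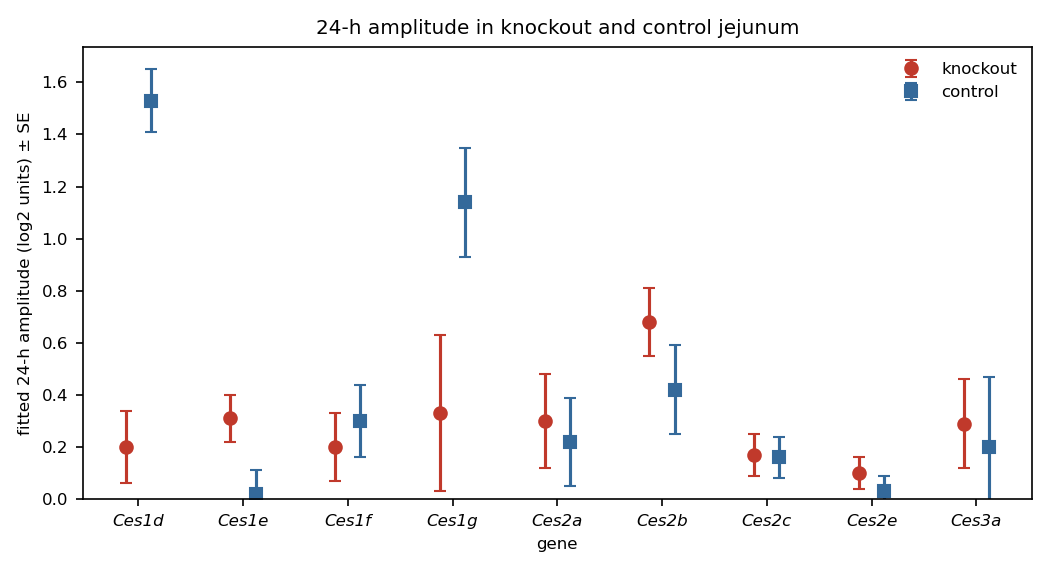
Fitted 24-h amplitude in log2 units (y axis) of each gene in knockout (circles) and control (squares) jejunum, bars are the SE. Control amplitudes of Ces1d and Ces1g are 1.53 and 1.14, against 0.20 and 0.33 in knockout jejunum, and the bars of the other genes mostly overlap.

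Added together, the 9 genes stood at 1125 to 1919.7 CPM per kb in knockout libraries (median 1308) and 657 to 1889.9 CPM per kb in control libraries (median 966), a sum led by Ces2e, Ces2a and Ces2c. In bulk tissue, fewer cells of a type and less RNA per cell cannot be told apart. All 6 markers of T cells and intraepithelial lymphocytes fell in knockout jejunum (summed level 47.4 to 108 CPM in knockout, against 90.7 to 352 CPM in control libraries). Of the 8 enterocyte markers 2 rose (Alpi 0.32, Sis 0.35) and 2 fell (Apoa1 -0.31, Fabp2 -0.31). Adipocyte markers summed to 73.8 to 267 CPM in knockout and 59.2 to 908 CPM in control libraries. The 5 markers of the proximal small intestine, led by Fabp1 and Lct, summed to 3774 to 7946 CPM in knockout and 3849.6 to 6660.4 CPM in control libraries. At CT1, but at no other time, these sums did not overlap (5057 to 7946 CPM in knockout, against 3849.6 to 4393 CPM in control libraries). Of the 5, Fabp1 rose (0.26) and Cybrd1 fell (-0.38). Whether cell make-up or the stretch of gut sampled has a part in the carboxylesterase values was not tested.

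Of the 11 carboxylesterase genes outside the 9, 4 could be tested and all 4 passed: 3 rose and 1 fell. Ces2g rose to a mean of 145 CPM in knockout jejunum, against 65.0 CPM in control jejunum (1.19 ± 0.09, adjusted p = 5.01e-14), Ces2h rose by 1.04 ± 0.12 (adjusted p = 8.99e-09) and Ces2f by 0.74 ± 0.27 (adjusted p = 0.0368). Ces1c, a carboxylesterase that circulates in mouse plasma, fell by 0.60 ± 0.18 (adjusted p = 0.00983). Ces2f had a rhythm in both genotypes (amplitude 1.22 in knockout and 1.49 in control jejunum), with a highest count of 20 in any library. Control rhythms were also called for Ces2g (amplitude 0.39, adjusted p = 0.00395, edgeR) and Ces2h (0.49, adjusted p = 0.0328). Their knockout rhythms were not called (adjusted p = 0.133 and 0.443). The rhythm difference passed for 0 of the 4 genes. Ces1h and Ces4a had 0 counts in all 47 libraries.

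Among 17 other ester and lipid hydrolases, 4 rose, 2 fell and 11 did not pass. Aadac, an arylacetamide deacetylase of the endoplasmic reticulum, rose to 294 CPM in knockout jejunum, against 185 CPM in control jejunum (0.67 ± 0.08, adjusted p = 8.22e-09). Nceh1 (0.34), Pon2 (0.18) and Bche (0.38) rose less, and Lipe and Ddhd2 fell by 0.20 and 0.21 on the log2 scale. The median of this list was -0.0197. Of 8 receptors for xenobiotics and lipids only the bile acid receptor gene Nr1h4 passed (0.37 ± 0.05, adjusted p = 4.06e-07), and the pregnane X receptor gene Nr1i2 was at -0.05 (adjusted p = 0.493). Of 13 genes of triacylglycerol synthesis and lipoprotein assembly 3 rose and 5 fell, with Dgat2 at -0.44 ± 0.08 (adjusted p = 2.15e-05).

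Of 7 clock and clock-output genes, 4 fell and 1 rose, and 6 had a rhythm that differed between the genotypes. Among the factors that bind the D-box letters shown above, Dbp fell by 0.81 ± 0.12 (adjusted p = 1.69e-06) and its amplitude was 1.69 in knockout, against 3.15 in control jejunum. Tef fell by 0.54 ± 0.05 (adjusted p = 2.34e-10), with an amplitude of 0.58 in knockout, against 1.58 in control jejunum. Hlf did not pass (-0.22 ± 0.09, adjusted p = 0.0784), and its amplitude was 0.97 in knockout, against 1.9 in control jejunum. Nfil3, a repressor at the same element, rose by 0.79 ± 0.10 (adjusted p = 1.6e-08), with an amplitude of 0.53 in knockout, against 1.79 in control jejunum. Control peaks were at CT9.53 for Dbp, CT11.5 for Tef, CT12.2 for Hlf and CT21.4 for Nfil3, and that of Ces1g at CT18.8. Ces1e, whose window holds the same letters, had no called control rhythm. Any part of these factors in the levels of Ces1g or Ces1e was not tested.

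Of the 8 tested genes nearest to or inside the Ces2 and Ces3 group, only Rrad passed the test over all times (-0.69 ± 0.20, adjusted p = 0.0104), 102.7 kb away. None of these 8 had a rhythm difference past the threshold in edgeR, where the lowest adjusted p was 0.212. Gm6831 and Gm8798, which lie inside the group, share 130 and 363 of the 50-base stretches of Ces2c. Counts of these neighbours are therefore uncertain as well.

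Over the 12 group means of log2 CPM, the other tested genes most like Ces2e were Pdzk1 (Pearson r = 0.982), a scaffold protein of the brush border, Rdh16f2 (0.969) and Etfa (0.963). Those most like Ces2c were Rdh16 (0.924), Amacr (0.92) and Dcst2 (0.907), and those most like Ces2a were Igsf3 (0.932), Smim15 (0.878) and Gstm2-ps1 (0.87). For Ces1d, added after its values were seen, they were Pcp4l1 (0.95), the cytochrome P450 gene Cyp2b10 (0.945) and Tbl1xr1 (0.928). Pcp4l1 fell by 0.65 (adjusted p = 4.62e-07) with a control peak at CT17.0, and Cyp2b10 by 0.47 (adjusted p = 5.61e-05) with a control peak at CT17.3. The 12 points share libraries and scaling, and the values rank genes without a test. Among the 9 genes themselves, Ces2e and Ces3a had the highest correlation of the genes that rose (0.915), and Ces1d and Ces2b were at -0.746.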

How the data were processed

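Jejunal RNA was taken up with NucleoSpin RNA kits and sequenced from TruSeq Stranded mRNA libraries, per the labels' protocols. The values are gene counts deposited by the authors as whole numbers, not normalized. The submitters' processing notes name the mm10 build, STAR 2.7.5c, featureCounts 1.4.6, Trimmomatic 0.39 and SAMtools 1.3.1, with FastQC 0.11.5. For the strand setting, reads that match several genes and the annotation release: not given in the sources used here.

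The tests used edgeR 4.0.16 under R 4.3.3. Genes were kept by filterByExpr (minimum count 10, minimum total 15), which left 15646, and TMM factors set the library sizes. Quasi-likelihood fits with 1 mean per group, for 12 groups, gave the genotype difference over all times, at each time, and the interaction. A second model with a 24 h cosine per genotype gave amplitudes and peaks. P-values were adjusted by Benjamini-Hochberg over all tested genes, with a threshold of 0.05. The procedure was tested on simulated data. Libraries stood apart where relative log expression had an interquartile range over 0.5. A count of 3, the limit that a count of 0 allows, corresponds to 0.434 to 0.692 CPM across libraries, which covers counting error only.

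Replicate numbers follow the order of deposit and only name libraries. Coding sequences were aligned with mafft 7.526. The genes and gene lists were chosen with earlier results of these data known. Genes outside the 9 were named as members of those lists, as the nearest tested neighbours other than carboxylesterases, or as the 3 most similar genes. Alternatives were other scaling (upper quartile, RLE), no low-count filter, limma-voom (limma 3.58.1), DESeq2 1.42.0, the groups of a time alone, any difference among the times, another transcript length, and leaving out each library or the libraries that stood apart. Leaving out CT1 or CT17, and holding control CT17 to 2 libraries, were chosen after seeing the data.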

Additional observations from a re-analysis of the deposited data

Results flagged for a closer look

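The genotype difference of Ces1d varied among the 6 times (adjusted p of the interaction 7.66e-09, edgeR), and its 24-h rhythm differed between knockout and control jejunum (adjusted p 1.07e-07).

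The limit used for an outlying library is passed by about 1 in 20 separate sets of normally distributed values. The 99 sets tested here share libraries, and some hold few reads, so their number is a description. In 9 of the 99 sets, 1 library lay far from the others of its group. The library was high for Ces1f in knockout CT13 replicate 4 (275 CPM, others 129 to 131), Ces1g in knockout CT17 replicate 3 (2.94 CPM, others 1.88 to 1.89), Ces2a in knockout CT5 replicate 3 (1165 CPM, others 534 to 598) and Ces2a in control CT13 replicate 3 (959.8 CPM, others 287 to 347). Ces2c was high in knockout CT1 replicate 1 (893 CPM, others 554 to 581) and Ces2e in knockout CT21 replicate 4 (2669 CPM, others 1842 to 1931), and both libraries are among the 5 that stood apart over all genes. Ces3a was high in control CT17 replicate 3 (3.98 CPM, others 0.663 to 1.22). Ces2b was low in knockout CT17 replicate 1 (4.48 CPM, others 7.16 to 7.71), and Ces1e was low in control CT5 replicate 1 (17.5 CPM, others 32.5 to 35.2).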

How the results depend on the processing

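The 5 genes higher and 2 lower over all times were counted alike under upper-quartile and RLE scaling, limma-voom, DESeq2, no low-count filter, without the libraries that stood apart, without CT1, without CT17 and without any single library; 6 were higher with control CT17 held to 2 libraries. Pairs of gene and time called higher numbered 11 with the groups of that time alone, and 13 to 19 without single libraries. Pairs called lower numbered 5 without the libraries that stood apart, and 7 to 8 without single libraries. Knockout rhythms were called in 1 gene with no low-count filter, in 1 by any difference among the 6 times, and in 1 to 2 without single libraries. Control rhythms were called in 4 genes with control CT17 held to 2 libraries, and in 2 to 3 without single libraries; rhythm differences numbered 1 to 2. The cause of these changes was not tested.

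Directions that turned belonged to values not past the threshold. With control CT17 held to 2 libraries, the knockout minus control amplitudes of Ces2a, Ces2b and Ces3a were -0.1806, -0.0404 and -0.0187, and the CT17 values of Ces1f, Ces2a and Ces2c were 0.61, 0.60 and 0.36. Ces1e at CT1 was -0.33 without the libraries that stood apart. Without single libraries, ranges that crossed 0 were -0.0139 to 0.0902 for the amplitude difference of Ces2c, -0.1286 to 0.1713 for that of Ces3a, -0.1055 to 0.162 for Ces1e at CT1, -0.0772 to 0.2037 at CT5 and -0.0881 to 0.2367 at CT21, -0.2522 to 0.2148 for Ces2a at CT5, and -0.2808 to 0.0283 for Ces2c at CT17. No paired analysis was possible because the labels give no shared replicate numbers. Counting error limits Ces3a and, in knockout jejunum, Ces1g.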
